A study of Mus musculus with 14 samples.

Results

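Thrombospondin 1 (Thbs1) and thrombospondin 2 (Thbs2) were followed across 11 mouse cell lines. They were found as the probes that the array platform's annotation assigns to the symbols Thbs1 and Thbs2, which gave 1 probe for each gene and 2 of the 7601 features measured. Both genes were chosen by their measured log2 ratios on these same arrays, which spread widely over the lines, so their levels are given as a description, with no test. The series measured which transcripts single lines contribute to a universal mouse reference RNA. Each of 14 two-colour spotted arrays carried total RNA of 1 line in the Cy5 channel and the Stratagene mouse reference (cell line RNA sold as a pool) in the Cy3 channel, and no array had the dyes exchanged. The lines were labelled macrophage, T-cell lymphoma and myeloma (termed blood-cell lines here), fibroblast, embryo fibroblast and myoblast (mesenchymal lines), and mammary tumor, testis, liver, kidney and skin (organ lines). There were 2 arrays each for mammary tumor, fibroblast and myeloma, and 1 (n = 1) for each of the 8 remaining lines.

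The labels give no treatment, genotype, strain or age for any line, and no name of the line itself. Their titles speak of cell lines, whereas a short annotation on every sample speaks of primary tissue; the titles were followed. Nothing says that the arrays of a pair came from separate cultures, so the spread between them may be technical. The reference label of the first mammary tumor array has extra letters that are not explained in the labels. Values are log2 ratios of line over pool: 0 means the level of the pool, and each unit is a 2-fold step. The median of all features was -0.51 on the embryo fibroblast array and -0.40 on the kidney array, and between -0.15 and 0.13 on the others. Values of those arrays are given without taking this offset out, unless median centring is named. The base and direction of the logarithm were judged from the values, and every fold rests on base 2.

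Thrombospondins are large calcium-binding glycoproteins that cells secrete into the extracellular matrix. Thbs1 and Thbs2 form the subgroup of trimers that carry type 1 (properdin-like) repeats; through these they bind the receptor Cd36 and restrain the growth of blood vessels, and Thbs1 can also release active TGF-beta from its latent complex. Thbs1 is stored in platelet granules and is made by many adherent cells after serum or growth factor stimulation, whereas Thbs2 is known mainly from fibroblasts and other connective tissue cells. Thbs3, Thbs4 and Comp form the pentameric subgroup, which lacks the type 1 repeats.

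The Thbs1 probe represents transcript NM_011580 of the gene with identifier 21825 on chromosome 2, and the Thbs2 probe represents NM_011581 of the gene with identifier 21826 on chromosome 17. The 250 bases before the annotated start of Thbs2 are shown because Thbs2 had the largest SD over lines of all features with a value in every line. They come from RefSeq's GRCm38.p6 assembly, chr17:14694263-14694512, minus strand, and are written 5′ to 3′ with matches to 2 common promoter motifs in capitals.
Thbs2 promoter: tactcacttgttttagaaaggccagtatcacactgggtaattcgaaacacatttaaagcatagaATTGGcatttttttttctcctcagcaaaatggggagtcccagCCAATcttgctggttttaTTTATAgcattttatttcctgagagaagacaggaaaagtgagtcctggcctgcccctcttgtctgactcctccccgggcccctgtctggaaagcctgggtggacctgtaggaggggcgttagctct
Both strands were searched for 4 motifs, and none of the matches overlapped another. The CCAAT box (CCAAT) matched on the gene's strand at position -144 and on the opposite strand at position -186, counted from the start, and 33.8% of 32851 promoters of this length hold it. The TATA box (TATAAA) matched on the opposite strand at position -126, and 12.4% of promoters hold it. The GC box (GGGCGG), held by 32.7% of promoters, and the AP-1 element (TGANTCA), held by 6.75%, had 0 matches in this window. These matches describe the letters only.

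Thbs1 was far below the pool in the blood-cell lines. Its log2 ratio was -6.89 for macrophage, -5.45 for T-cell lymphoma, and -4.98 and -3.73 on myeloma arrays 1 and 2. Those are 0.00844, 0.0228, 0.0317 and 0.0752 of the pool's level. The macrophage value was the 2nd lowest of 7525 features on its array, and the T-cell lymphoma value was the 14th lowest of 7593.

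Among the mesenchymal lines Thbs1 was above the pool on fibroblast arrays 1 and 2, with log2 ratios of 0.94 and 1.45 (1.93-fold and 2.74-fold). It was nearer the pool in the embryo fibroblast line, at 0.38, and in the myoblast line, at -0.67. The organ lines ranged from the most to the least Thbs1 outside the blood-cell lines. Mammary tumor arrays 1 and 2 gave 2.04 and 2.74 (4.12-fold and 6.69-fold over the pool), the 22nd highest of 7593 features and the 8th highest of 7583. The other organ lines had 1.28 in testis, -1.27 in liver, -1.71 in kidney and -3.10 in skin. Every blood-cell array was below every other array.

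For Thbs2 the low end reached outside the blood-cell lines. Its log2 ratio was -7.60 in the macrophage line (0.00517 of the pool), the lowest of all 7525 features on that array, -5.93 for T-cell lymphoma, and -5.40 and -3.08 on myeloma arrays 1 and 2. Liver and skin were as low, at -5.72 (the 2nd lowest of 7596) and -6.14 (the 4th lowest on its array), and kidney was at -3.95. The remaining organ lines had -2.12 in testis and -1.40 and 1.20 on mammary tumor arrays 1 and 2.

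By line mean Thbs2 was highest in the fibroblast line, but the arrays of that line lay far apart, at 0.94 on array 1 and 3.40 on array 2. They are 1.92-fold and 10.6-fold over the pool, the 766th highest and the 3rd highest feature on their arrays. The myoblast line had 0.59 and the embryo fibroblast line -0.84. The blood-cell lines overlapped the organ lines for Thbs2, whereas for Thbs1 they did not overlap any other line.

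**Figure D1:**
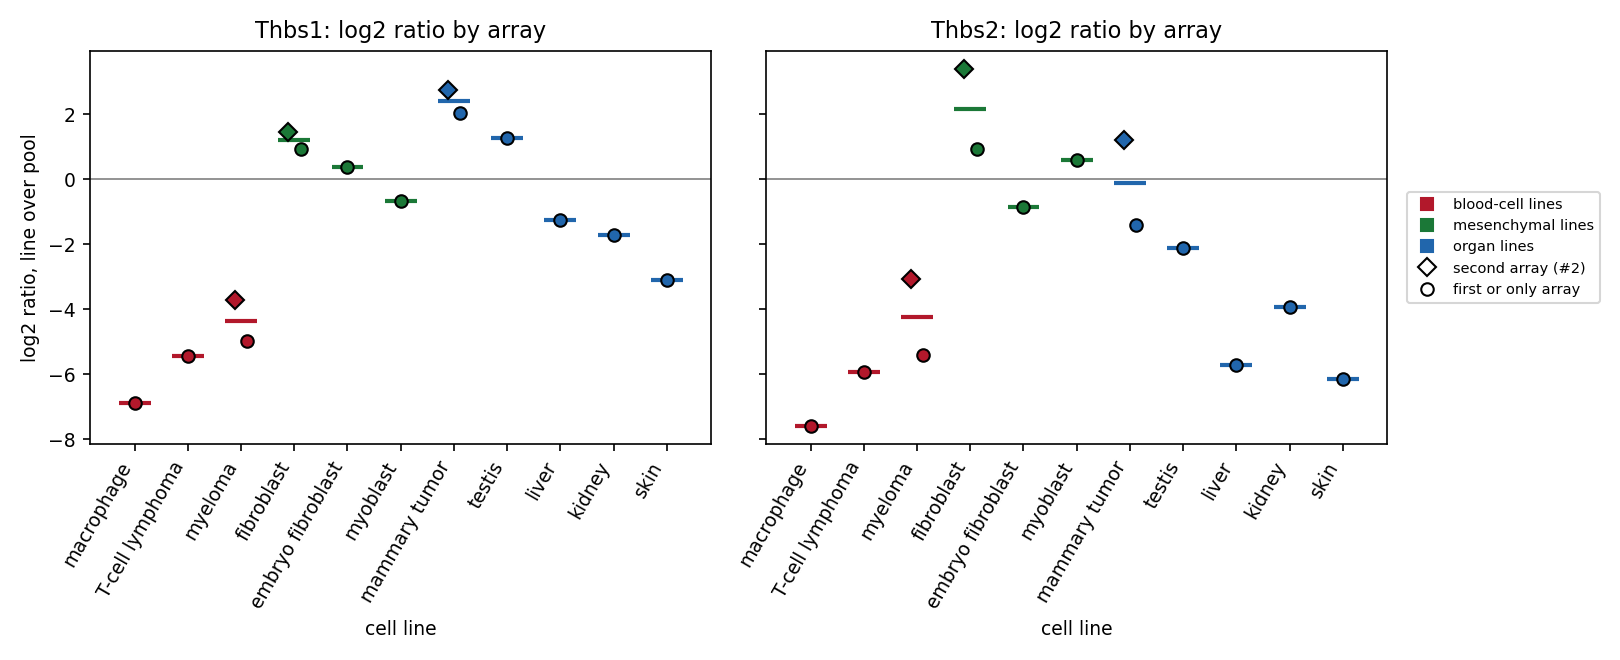
Log2 ratio of line over pool (vertical axis) of Thbs1 (left) and Thbs2 (right) in 11 cell lines; each point is 1 array, diamonds are second arrays, circles are first or only arrays, horizontal bars are line means and colours mark the blood-cell, mesenchymal and organ lines. Thbs1 lies at or below -3.73 on all blood-cell arrays and at or above -3.10 on all others, while Thbs2 is also low in liver, skin and kidney.

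The arrays of a pair agreed more closely for Thbs1 than for Thbs2. Array 2 minus array 1 was 0.70, 0.51 and 1.25 for Thbs1 in mammary tumor, fibroblast and myeloma, and 2.60, 2.47 and 2.32 for Thbs2 in the same order. Their pooled SD was 0.619 for Thbs1 and 1.74 for Thbs2 (3 degrees of freedom each), against a median of 0.431 over 7401 features, and Thbs2 ranked 22nd from the top in this spread.

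The second array was higher for Thbs2 in all 3 lines by over 2 log2 units, which held for 1 of 7401 features, Thbs2 itself. The muscle transcription factor Myog was the 1 feature that was lower on the second array by over 2 in all 3, at -3.06 in the mammary tumor, -2.22 in the fibroblast and -2.38 in the myeloma line; Myog and this threshold were chosen after the values were seen. The second arrays lay above the first in all 3 lines, by any amount, for 1774 features, and below for 1925. What set the second arrays apart was not tested. The Thbs2 line means of these 3 lines carry this gap.

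**Figure D2:**
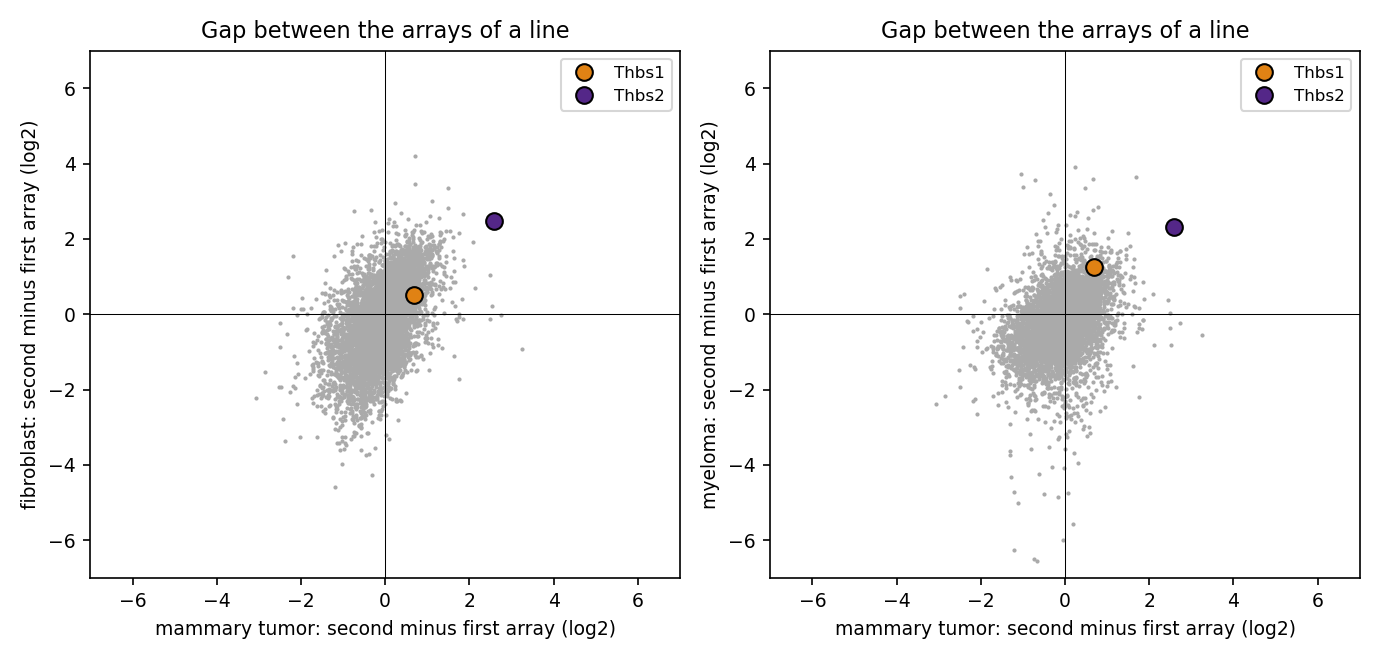
Difference between the second and the first array of a line (log2), for the fibroblast line (left) and the myeloma line (right) on the vertical axes against the mammary tumor line on the horizontal axes; each grey point is 1 of 7401 features. Thbs2 (purple) is above 2 on each axis, and Thbs1 (orange) is between 0.51 and 1.25.

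Ordered by line mean, Thbs1 ran from mammary tumor (2.39) through testis (1.28), fibroblast (1.20), embryo fibroblast (0.38), myoblast (-0.67), liver (-1.27), kidney (-1.71), skin (-3.10), myeloma (-4.36) and T-cell lymphoma (-5.45) to macrophage (-6.89). Each gap was set against a spread, which is the SD of the difference between neighbouring line values, taken from the pooled SD of the pairs. A gap beyond this SD is a description and no test of the order. Testis and fibroblast (0.08 apart), myoblast and liver (0.60) and liver and kidney (0.44) did not differ beyond the spread. The other 7 gaps between neighbours were 0.82 to 1.43, beyond a spread of 0.76 or 0.88. With the replicate number as a block the spread was 0.33 or 0.38, and all 10 gaps, 0.41 to 1.66, were beyond it.

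The order for Thbs2 was fibroblast (2.17), myoblast (0.59), mammary tumor (-0.10), embryo fibroblast (-0.84), testis (-2.12), kidney (-3.95), myeloma (-4.24), liver (-5.72), T-cell lymphoma (-5.93), skin (-6.14) and macrophage (-7.60). Its gaps between neighbours, 0.21 to 1.82, all lay within the spread of 2.13 or 2.46. That spread is mostly the shift that the second arrays shared, 2.46 on average with an SD of 0.139 over the 3 lines. With the replicate number as a block the spread was 0.12 or 0.14 (2 degrees of freedom), and all 10 gaps, again 0.21 to 1.82, were beyond it. The smallest gap, 0.21 between T-cell lymphoma and skin, was set against an SD of 0.14, so the order of such neighbours is not settled. On the level of the first arrays that this block sets, fibroblast was at 0.94, mammary tumor at -1.33, below embryo fibroblast, and myeloma at -5.47, still between kidney and liver. The block takes the lone arrays, whose titles have no number, as first arrays. Without the block, the ends of the order were 9.77 apart for Thbs2 and 9.28 apart for Thbs1.

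These spreads were among the widest on the arrays. The SD over the 11 line means was 3.21 for Thbs2, the 1st of 7423 features with a value in every line, and 2.99 for Thbs1, the 7th, against a median of 0.617. This width is what the genes were chosen for.

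Averaged over lines, Thbs1 was at -5.57 ± 1.27 in the 3 blood-cell lines, and at -0.19 ± 1.82 in the other 8 (SD over lines), a difference of -5.38, or 41.6-fold less in the blood-cell lines. For Thbs2 the means were -5.92 ± 1.68 in the blood-cell lines and -2.01 ± 3.02 in the other 8, a difference of -3.91 or 15.0-fold. All 3 blood-cell lines were below all 8 others for Thbs1, as for 3.53% of the 7423 features, and not for Thbs2; since the choice of genes used this contrast, nothing is read from that count.

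The labels give an image number for each array, and arrays fell into 5 runs of nearby numbers, used here as the nearest available record of batches. Within the run of 4 arrays Thbs1 was -5.45 on the blood-cell array and -0.13 on average on the 3 others, and Thbs2 was -5.93 on the blood-cell array and -1.28 on the others. In the run of 6 arrays the 3 blood-cell arrays were the macrophage array and both myeloma arrays, and the 3 others were liver, testis and fibroblast array 2. Thbs1 averaged -5.20 on these blood-cell arrays and 0.49 on the others, and Thbs2 averaged -5.36 and -1.48. For Thbs2 the arrays overlapped in this run: liver, at -5.72, was below both myeloma arrays (-5.40 and -3.08), and fibroblast array 2 was at 3.40. The differences within these runs were -5.33 and -5.69 for Thbs1, and -4.65 and -3.88 for Thbs2. The other 3 runs held no blood-cell line.

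The genes parted between mesenchymal and organ lines. Thbs2 averaged 0.64 ± 1.51 in the 3 mesenchymal lines and -3.61 ± 2.52 in the 5 organ lines, a difference of 4.25 or 19.0-fold. Thbs1 averaged 0.31 ± 0.94 in the mesenchymal lines and -0.48 ± 2.26 in the organ lines, a difference of 0.79 or 1.73-fold. By line mean the groups overlapped for both genes: the mammary tumor line, at -0.10 for Thbs2, was above the embryo fibroblast line at -0.84. For Thbs2 this rested on mammary tumor array 2, at 1.20, since array 1, at -1.40, was below the embryo fibroblast line.

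Subtracting the log2 ratio of Thbs1 from that of Thbs2 within a line showed where the genes differed relative to the pool. Each ratio is scaled to its own gene's level in the pool, so the difference does not say which transcript was more abundant. It was -4.45 in liver, -3.40 in testis, -3.04 in skin, -2.50 in mammary tumor and -2.24 in kidney, so all 5 organ lines had less Thbs2 than Thbs1 on this scale. The blood-cell lines were near balance, at -0.71 in macrophage, -0.48 in T-cell lymphoma and 0.11 in myeloma. Both genes were within the 14 lowest features on the macrophage, T-cell lymphoma and first myeloma arrays. How far ratios so low can show a difference between the genes was not tested. Myoblast (1.26) leaned to Thbs2, and embryo fibroblast (-1.23) leaned to Thbs1. The fibroblast mean of 0.97 came from array 2, at 1.95, while array 1 was at -0.01. Mammary tumor arrays 1 and 2 had -3.45 and -1.55, and the myeloma arrays had -0.42 and 0.65.

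Across the 11 line means the genes had a Pearson's r of 0.824 and a Spearman's rho of 0.818, and r was 0.724 over the 9 lines left without macrophage and T-cell lymphoma. Over the 8 lines outside the blood-cell class r was 0.752 and rho 0.667, with r of 0.642 over the 6 lines left without skin and mammary tumor. All values share the same arrays and the same pool, and the lines fall into classes, so these correlations are descriptions.

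**Figure D3:**
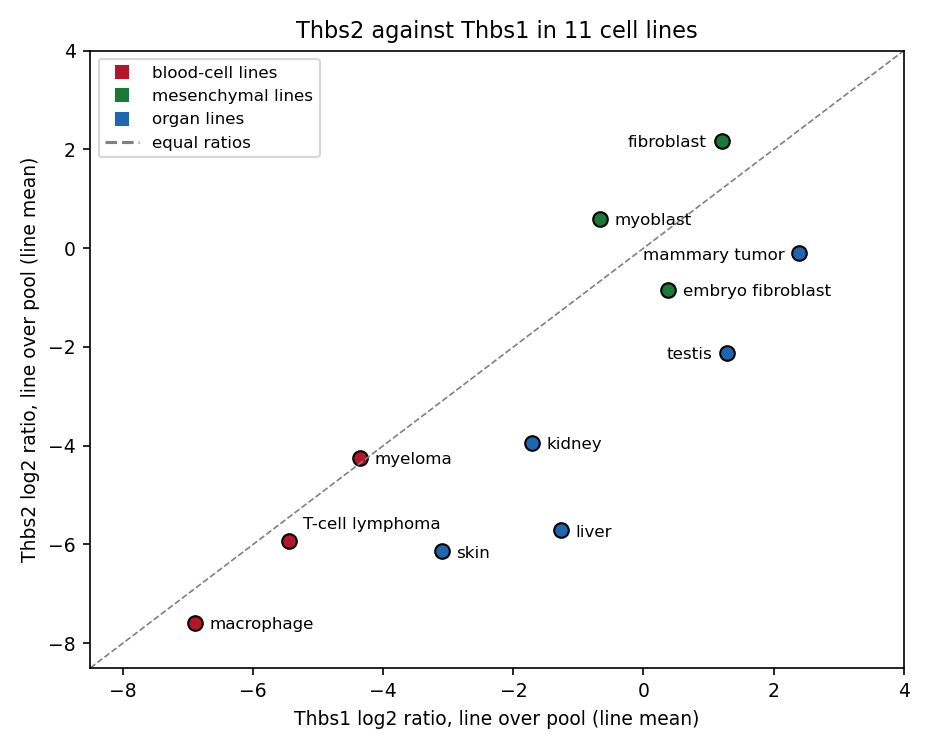
Log2 ratio of line over pool of Thbs2 (vertical axis) against Thbs1 (horizontal axis), 1 point per line mean, with colours for the 3 classes and a dashed line where both ratios are equal. The 5 organ lines lie 2.24 to 4.45 below the dashed line; myoblast lies above it, as does the fibroblast mean, of which array 1 alone would lie on it.

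The unlogged ratios show how unevenly the lines held each transcript, as the share of each line in the ratios summed over 11 lines. For Thbs1 the mammary tumor line held 40.9%, testis 18.9%, fibroblast 17.9% and embryo fibroblast 10.2%. The 3 blood-cell lines together held 0.624%, the mesenchymal lines 33.0% and the organ lines 66.4%.

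For Thbs2 the fibroblast line alone held 57.0%, followed by myoblast at 19.0%, mammary tumor at 11.8% and embryo fibroblast at 7.07%. The classes held 0.941% (blood-cell), 83.1% (mesenchymal) and 15.9% (organ). The fibroblast share rested on array 2 of that line: it was 75.7% without array 1 and 36.1% without array 2. The mammary tumor share was 24.7% without array 1 of that line, 5.15% without its array 2 and 6.65% without fibroblast array 1. The share of the organ lines was 28.3%, 9.6% and 8.99% in those 3 cases, and that of the blood-cell lines was 1.75% without myeloma array 1, 0.574% without myeloma array 2 and 0.531% without fibroblast array 1. A pool made of equal parts of these lines would give a mean unlogged ratio of 1 for each gene. That mean was 1.17 for Thbs1 and 0.718 for Thbs2, against 18.2 and 38.2 with the sign of the logs turned. Both genes were chosen for wide ratios, so their own means are no test of the direction. The median of this mean over all features was 1.0, against 1.2 with the sign turned. Over the tenth of features with the largest SD it was 0.923, against 3.11.

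**Figure D4:**
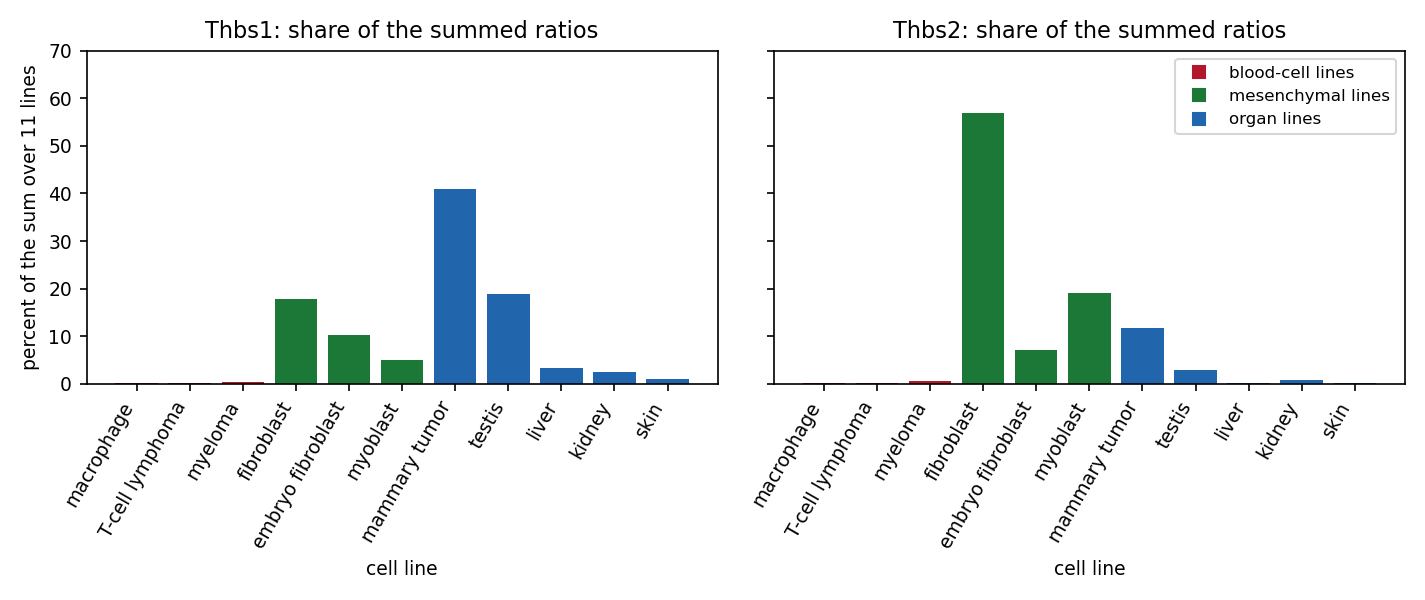
Share of each line (vertical axis, percent) in the unlogged ratios of line over pool summed over 11 lines, for Thbs1 (left) and Thbs2 (right), computed from line means; colours mark the classes. Mammary tumor holds 40.9% for Thbs1 and fibroblast 57.0% for Thbs2, and the 3 blood-cell lines together hold under 1% for each gene.

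The pentameric thrombospondins varied less than Thbs1 and Thbs2, which were chosen for their width, so nothing is read from this contrast. Thbs3, widely made in adult tissues, had line means between -1.13 (embryo fibroblast) and 1.36 (testis), and an SD over lines of 0.676. That was the 3110th widest of 7423 features, against a median of 0.617. Thbs4, known from muscle and nervous tissue, lay between -0.69 (embryo fibroblast) and 0.65 (T-cell lymphoma), with an SD of 0.457 (5793rd). Both genes were lowest on the embryo fibroblast array, where the median of all features was -0.51. Comp, the cartilage oligomeric matrix protein, had an SD of 1.54 (342nd). Its width came from 1 array: Comp was at -4.80 in the T-cell lymphoma line and between -1.46 and 0.61 in the other 10 lines. In the 4 comparisons tested below none of these 3 probes was called by limma, and 0 of 3 passed an unadjusted p under 0.05 in each.

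Patterns most like each gene were sought among 5190 features with an SD over lines of at least 0.5, by Pearson's r over the 11 line means. For Thbs1 they were Nfic, a nuclear factor I transcription factor (r 0.944), Fbln2, the matrix protein fibulin 2 (0.937), and Vcl, the focal adhesion protein vinculin (0.926). They were followed by Nab2, a corepressor of EGR factors (0.913), the cadherin Cdh11 (0.910), the membrane-associated protein Palm (0.907), the actin-binding calponin Cnn2 (0.906) and the Wnt receptor Fzd2 (0.906). Over the 8 lines outside the blood-cell class these r were 0.898, 0.818 and 0.862 for Nfic, Fbln2 and Vcl, and as low as 0.58 for Fzd2. Thbs2 stood 51st in this order.

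Closest to Thbs2 were Nid1, the basement membrane protein nidogen 1 (0.899), Fah, an enzyme of tyrosine breakdown (0.876), the transcription factor Snai1 (0.857) and the protease Furin (0.857). Next came Sgcd, a sarcoglycan (0.845), the growth factor receptor Fgfr1 (0.836), the metalloprotease Adam19 (0.833) and again Cnn2 (0.830), with Thbs1 in 10th place. Without the blood-cell lines the r of Nid1 and Fah were 0.885 and 0.881. Likeness in shape did not mean a like width: Fah ran from -0.72 (myeloma) to 1.01 (mammary tumor). The probes numbered next to Thbs1 had r of 0.758 (Col4a6) and 0.822 (Sorbs3) with it, and those numbered next to Thbs2 had 0.565 (Robo1) and 0.145 (Cdh5) with it; the labels do not say what neighbouring probe numbers share on the slide.

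The genes that thrombospondins work with were followed as 8 lists (133 probes in all), each probe tested with limma over 7423 features and called below an adjusted p of 0.05 (Benjamini-Hochberg). Thbs1 and Thbs2 were left out of these counts. The macrophage and fibroblast lines, at the low and high ends for Thbs2, were each set against the mean of the other 10 lines, and line means were compared between classes of line. The macrophage line is 1 array, and the spread behind its tests, as behind those of the fibroblast line, comes from the 3 pairs of arrays, which may be technical. Those p-values therefore do not measure how far separate cultures of a line vary. A value after ± is the standard error of that difference.

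In the macrophage line, where both thrombospondins were lowest, the scavenger receptor Cd36 was higher, and 2 TGF-beta ligands (Tgfb2 and Tgfb3) and several matrix proteins were lower. Of the 133 probes 3 were higher and 16 lower, where 1.94% of all probes were higher and 2.13% were lower. With the replicate number as a block these became 6 higher and 32 lower, of 302 and 394 probes called in all.

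Among 20 receptor probes 1 was higher and 1 lower, with a median difference of -0.17 beside 0.05 for all probes. Cd36, which binds the type 1 repeats, had a log2 ratio of 3.83 in the macrophage line, and between -4.89 (kidney) and 0.14 (liver) as line means in the other 10. No other line came near it. The difference was 6.76 ± 1.11, or 109-fold (adjusted p = 0.0257, limma). Itga6, an integrin chain that takes part in binding the N-terminal domain, was lower at -2.51 ± 0.347 (adjusted p = 0.018). Cd47, the receptor of the C-terminal domain, was not called: it was at -0.03 in the macrophage line and between -1.55 and 0.76 in the others. Sdc1, a heparan sulfate proteoglycan, missed the threshold at -1.84 (adjusted p = 0.0571) and was called with the replicate block (adjusted p = 0.0226). Sdc4 went in the other direction and was far from the threshold, at 1.18 (adjusted p = 0.47). With the replicate block Sdc4 was called (1.39, adjusted p = 0.0396).

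Binding partners and proteases gave 0 higher and 3 lower of 26 probes (median -1.03). Tgfb3 differed by -4.19 ± 0.349 (adjusted p = 0.00761): it was at -4.78 in the macrophage line, and next lowest, at -3.48 and -3.47, on the myeloma arrays. Tgfb2, at -3.25 in the macrophage line, differed by -2.56 ± 0.351 (adjusted p = 0.0175). Tgfb1 was not called, at -0.75 in the macrophage line and a difference of -0.30 (adjusted p = 0.707), and 5 of the other 10 lines were below it. The small proteoglycan Dcn differed by -2.84 ± 0.477 (adjusted p = 0.028), with 2 of 10 lines, kidney and skin, near or below it at -5.68 and -5.50 against -5.62.

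Of the 26 probes of the TGF-beta response list 1 was higher and 5 were lower (median -1.38). The fibrillar collagen gene Col5a2 differed by -4.47 ± 0.747 (adjusted p = 0.0275), Ccn2, known as connective tissue growth factor, by -3.45 ± 0.488 (adjusted p = 0.0189), and the proteoglycan Bgn by -2.46 ± 0.477 (adjusted p = 0.044). Other lines were nearly as low for Col5a2 and Ccn2. Col5a2 was at -5.39 in the macrophage line, -5.34 in T-cell lymphoma and -4.78 in liver. Ccn2 was at -4.79 in the macrophage line, -4.72 in T-cell lymphoma and -4.42 in skin. Id2, an inhibitor of helix-loop-helix factors, was the probe that was higher, by 2.70 ± 0.428 (adjusted p = 0.0233).

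Of the 19 matricellular probes, for secreted proteins that like thrombospondins modulate cell-matrix contact, 0 were higher and 6 were lower (median -0.99). Fbln2 was at -5.21 in the macrophage line and differed by -4.31 ± 0.425 (adjusted p = 0.00826). Both Tnc (tenascin C) probes were lower, with differences of -3.51 ± 0.45 and -3.19 ± 0.612 (adjusted p = 0.0157 and 0.0416). Another fibulin, Fbln1, differed by -3.64 ± 0.65 (adjusted p = 0.0332) and the collagen-binding protein Sparc by -3.42 ± 0.639 (adjusted p = 0.0381), and Ccn2 belongs to this list as well. By line mean Sparc was lower still in myeloma, at -4.18 against -4.05 in the macrophage line.

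The remaining lists gave single calls, where 1.94% of all probes were higher and 2.13% were lower. Adamts5, a protease with type 1 repeats, differed by -2.54 ± 0.341 (adjusted p = 0.0168) and was 1 of 11 type 1 repeat probes called. It was lower in T-cell lymphoma, at -3.794, than in the macrophage line, at -3.475. Eng, a TGF-beta co-receptor, was higher by 2.34 ± 0.407 (adjusted p = 0.032), 1 of 30 angiogenesis probes. For Eng the skin line, at 1.34, was above the macrophage line, at 0.90. Myc, reported to repress Thbs1, differed by -2.45 ± 0.503 (adjusted p = 0.0499), 1 of 10 reported regulators. Cd36, Tgfb3, Col5a2 and Fbln2 were called under all 11 other settings. Quantile normalization ended the other 13 named calls in this line (adjusted p from 0.0651 to 0.428), and for Ccn2, Id2 and the first Tnc probe it was the only setting that did. The calls of Myc, Eng, Bgn and Fbln1 ended when any 1 of the mammary tumor or myeloma arrays was left out (adjusted p from 0.0561 to 0.101), those of Sparc and the second Tnc probe when either mammary tumor array was (0.0581 to 0.0767), and those of Tgfb2, Itga6, Adamts5 and Dcn when mammary tumor array 2 was (0.0511 to 0.0536). Of the 133 probes 11 were called without mammary tumor array 1 and 7 without array 2.

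In the fibroblast line, the highest for Thbs2, 7 of the 133 probes were higher and 2 lower, where 0.835% of all probes were higher and 0.391% lower. Dcn was at 2.02 and 1.84 on the fibroblast arrays and next highest in testis, at 0.95, a difference of 5.45 ± 0.352 (adjusted p = 0.00461, limma). Ccn3, a matricellular protein, had 1.65 and 2.70 on the fibroblast arrays, and 1.53 in the myoblast line as the next highest. Its difference was 4.10 ± 0.327 (adjusted p = 0.00785).

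The other calls were smaller. Lrp1, the endocytic receptor that clears Thbs2 from the pericellular space, was higher by 2.48 ± 0.351 (adjusted p = 0.0324), with 0.84 and 1.67 on the fibroblast arrays, while the mammary tumor arrays had 0.86 and 1.76. Itga6 was higher by 2.14 ± 0.256 (adjusted p = 0.0212) and Fbln2 by 2.12 ± 0.313 (adjusted p = 0.0379). The chemokine Cxcl12 was higher by 3.59 ± 0.472 (adjusted p = 0.0274) and the vessel growth factor Angpt1 by 2.33 ± 0.381 (adjusted p = 0.0484). For Cxcl12 the fibroblast arrays were at -0.05 and 1.31, below testis (1.56) and both mammary tumor arrays (2.1 and 3.0). By line mean Fbln2 was at 0.64, below testis at 0.81, and Angpt1 was at 1.38, beside 1.305 in mammary tumor. The metalloprotease inhibitor Timp3 differed by -2.93 ± 0.341 (adjusted p = 0.0204) and Tgfb2 by -1.58 ± 0.259 (adjusted p = 0.0484).

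By list, 2 of 20 receptors were higher, 1 higher and 2 lower of 26 binding partners, and 2 higher each of 19 matricellular and of 30 angiogenesis probes. The TGF-beta response list had 0 calls of 26, with 12 at an unadjusted p under 0.05, the type 1 repeat list 0 of 11 (1 at an unadjusted p) and the reported regulators 0 of 10 (0 at an unadjusted p). Without fibroblast array 2, 0 of the 133 and 0 of all 7423 probes were called (1390 at an unadjusted p under 0.05, smallest adjusted p 0.069), and without array 1 of that line 3 of the 133 were. Leaving out 1 mammary tumor array, either the first or the second, left 4 calls, and leaving out myeloma array 2 left 3. With the replicate block 9 were higher and 5 lower, among them both Tnc probes at -1.64 and -1.67 (adjusted p = 0.0257 and 0.0409).

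**Figure D5:**
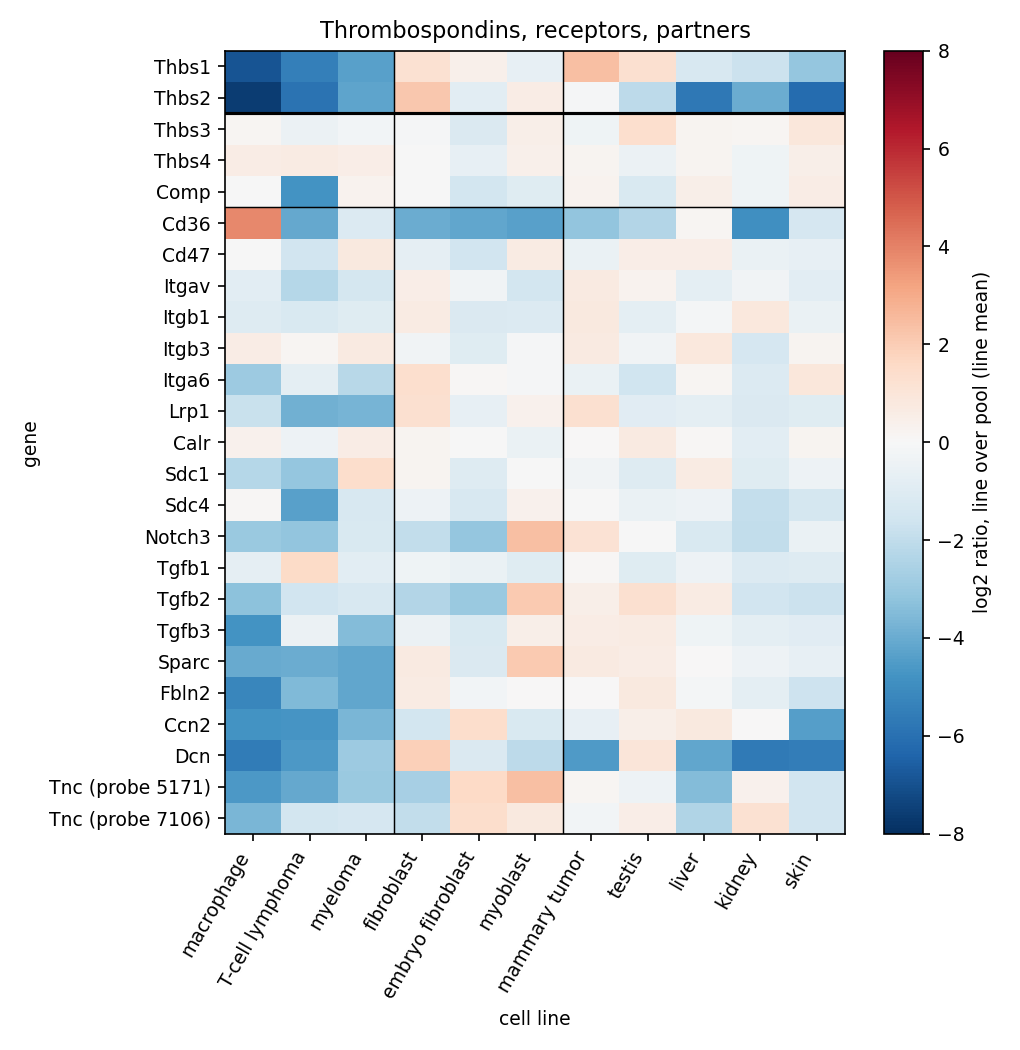
Line mean of the log2 ratio of line over pool (colour, red above and blue below the pool) for thrombospondins, their receptors and partners (rows; the upper rows are Thbs1, Thbs2 and the pentameric family members) in 11 lines (columns; vertical rules part blood-cell, mesenchymal and organ lines). Cd36 is above 1 only in the macrophage column (3.83 there), and Sparc and Fbln2 are blue in the 3 blood-cell columns.

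Set against the other 8 lines, the 3 blood-cell lines had 0 of the 133 probes higher and 11 lower, where 0.997% of all probes were higher and 2.22% were lower; 42 of the 133 passed an unadjusted p under 0.05. Fbln2 averaged -4.29 in the blood-cell lines and -0.16 in the others, a difference of -4.13 ± 0.492 (adjusted p = 0.000747, limma), and Sparc differed by -4.32 ± 0.534 (adjusted p = 0.00085). The metalloprotease inhibitor Timp1 differed by -3.91 ± 0.447 (adjusted p = 0.000593). All arrays of the blood-cell lines were below all others for Fbln2, Sparc and Timp1, and also for Lrp1 and the collagen gene Col1a1. By line mean the 3 blood-cell lines were below all 8 others for 3.53% of the 7423 features. Nothing about a likeness to Thbs1 is read from this separation.

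Further calls were the collagen genes Col5a2 at -5.25 ± 1.17 (adjusted p = 0.0305) and Col1a1 at -3.70 ± 0.914 (0.0438), Ccn2 at -3.76 ± 0.925 (0.0428) and both probes of Hspg2 (perlecan) at -1.76 ± 0.358 and -3.08 ± 0.736 (0.0189 and 0.0385). Lrp1 differed by -2.93 ± 0.618 (adjusted p = 0.0226), and Ltbp1, which binds latent TGF-beta, by -2.50 ± 0.62 (adjusted p = 0.045).

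Counted by list, 1 of 20 receptors was lower, as were 4 of 26 binding partners, 5 of 26 TGF-beta response and 3 of 19 matricellular probes (medians -0.54, -1.02, -1.49 and -0.59 beside 0.11 for all probes). The type 1 repeat, angiogenesis and regulator lists had 0 calls of 11, 30 and 10, with 6, 4 and 3 at an unadjusted p under 0.05. Their medians were 0.67, -0.31 and -0.43, so the type 1 repeat list leaned higher in the blood-cell lines. Quantile normalization ended 7 of the 10 named calls, all but Fbln2, Sparc and Timp1 (adjusted p from 0.0732 to 0.174), and median centring ended that of Ccn2 (0.0512). Without myeloma array 1 the calls of Ccn2, Col1a1, both Hspg2 probes and Ltbp1 ended (adjusted p from 0.0547 to 0.141); 6 of the 11 calls held and 1 probe, of the vessel ligand Efnb2, was newly called. Without fibroblast array 2 those of Col1a1, the second Hspg2 probe and Ltbp1 ended (0.0518 to 0.0557), and without mammary tumor array 2 that of Col1a1 (0.0538).

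Between the 3 mesenchymal and the 5 organ lines, where Thbs2 differed by 4.25, limma called 0 of the 133 probes higher and 0 lower, as of all 7423 (0.0% in each direction; smallest adjusted p 0.408). Of the 133 probes 15, and of all probes 465, passed an unadjusted p under 0.05.

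Lists of cell type markers were followed in the same comparisons. The fibroblast list shares genes with the lists above, among them Col1a1, Col5a2, Dcn, Sparc and Fbln2, so its calls partly repeat theirs. Fibroblast markers (21 probes) had a median log2 ratio of -4.05 in the macrophage line, -3.52 in T-cell lymphoma and -2.91 in myeloma. Elsewhere it lay between -1.61 (kidney) and 0.68 (myoblast). It did not part mesenchymal from organ lines: testis (0.58) and mammary tumor (0.15) were above fibroblast (0.12) and embryo fibroblast (-0.2). In the macrophage line the median difference of these markers was -2.57, beside 0.05 for all probes. In the blood-cell class 8 of 21 were lower, where 2.22% of all probes were. Pan-leukocyte markers (19 probes) had medians of 1.33, 0.90 and 0.35 in the macrophage, T-cell lymphoma and myeloma lines, and between -3.67 and -1.42 in the others. In the macrophage line their median difference was 3.03, beside 0.05 for all probes. In the blood-cell class 14 of 19 were higher, where 0.997% of all probes were. Myoblast had the highest median of 14 muscle markers, at 3.17. In the fibroblast line 5 of 21 fibroblast markers were higher, where 0.835% of all probes were. Epithelial markers went less with the labels: in the mammary tumor line, the highest for Thbs1, their median over 14 probes was -0.65 and 4 of 14 were above the pool, over a range from -3.01 (Krt8) to 0.57 (Cldn3). Their median was highest in the myeloma line, at 0.54 with 9 of 14 above the pool. In the other organ lines it lay between -1.47 (kidney) and -0.33 (liver). The part of such markers in the thrombospondin values was not tested.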

How the data were processed

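The values are log2 ratios as the authors deposited them, 1 per spot and array, for 14 two-colour arrays of 11 mouse cell lines. The sources used here do not give their background correction, normalization or spot filters. Of 107520 cells in the table of 7680 probes 423 (0.393%) were empty. The 80 Gapdh spots were averaged, leaving 7601 features; 6835 probes had 1 gene symbol, 4 had several and 841 were unlisted, and 6809 were matched to a RefSeq table of GRCm38.p6. Lines and classes were compared with limma 3.58.1 in R 4.3.3 on the 7423 features with a value in every line, two-sided, with Benjamini-Hochberg adjustment. The fit over lines had 3 residual degrees of freedom from the pairs of arrays and 3.75 prior ones, with a median residual SD of 0.43, and lone arrays were taken to vary as the pairs did. Class comparisons used line means. The number of arrays limits the precision. Plots were made in Python 3.11.15 with matplotlib 3.10.9. The fit was tested on simulated data.

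The members and gene lists were chosen with earlier results of these data known. Named genes were a set written from textbook knowledge, up to 4 called genes with the widest difference per list and comparison, and the 8 features with the highest r per member. Second arrays carry a #2 in their titles, which pairs them by number across the 3 lines. The differences of array 2 minus array 1 correlated with r of 0.541, 0.379 and 0.33 between lines over 7401 features, so the replicate number was also fitted as a block. Alternatives were median centring, quantile normalization, leaving out each array of a pair, features on all arrays, natural logs, runs of image numbers as a random block and the replicate block. Using only first or only second arrays, and the block and left-out arrays for the order and all shares of the thrombospondins, were added after seeing the data.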

Additional observations from a re-analysis of the deposited data

How the results depend on the processing

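The differences of Thbs1 and Thbs2 between classes kept their direction under every alternative. The difference between blood-cell and other lines ranged from -5.59 to -4.82 for Thbs1 and from -4.30 to -3.44 for Thbs2, and that between mesenchymal and organ lines from 0.702 to 0.978 and from 3.84 to 4.66. The share of the fibroblast line in Thbs2 was 36.1 to 75.7% when 1 array was left out, and the share of the mammary tumor line in Thbs1 was 53.7% with natural logs. Counts of called probes moved more. In the macrophage line 19 listed probes and 302 in all were called, which became 4 and 113 with quantile normalization, 38 and 696 with the replicate block, and 7 to 23 and 134 to 421 with 1 array left out. In the fibroblast line 9 and 91 became 15 and 227 with runs of image numbers as a block, 14 and 193 with the replicate block, and 0 to 8 and 0 to 62 with 1 array left out. For the blood-cell class 11 and 239 became 4 and 111 with quantile normalization, and 7 to 16 and 184 to 342 with 1 array left out. The cause was not tested. Of 376 values of 36 named calls under the alternatives 288 were still called, 88 were not and 0 reversed. The replicate block was run for the 26 named calls of the macrophage and fibroblast lines and ended none of them; the 10 of the blood-cell class, made on line means, have no such fit. Each gene had 1 probe, so no value of separate probes could be had.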
